A study of Homo sapiens with 12 samples.

Results

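Nucleotide synthesis and one-carbon genes were followed in C4.2B cells, an established human line of castration-resistant prostate cancer, under inhibitors of PI3K and EZH2. The genes were taken from a list of 41 symbols for the enzymes that make, interconvert and salvage nucleotides and that supply one-carbon units, and 40 of them are among the 23228 genes in the count files. CTP synthase 1 is there under its older symbol CTPS, and adenylosuccinate synthase 2 under ADSS. The list sets no limit on a measured value, though it was drawn up with earlier results of these data known.

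PolyA RNA was sequenced from 12 libraries, with replicates A, B and C in each of 4 arms. Cells received vehicle (DMSO), GDC-0941 at 0.5 µM, which inhibits all class I PI3K enzymes (GDC), GSK126 at 5 µM, which inhibits the histone methyltransferase EZH2 (GSK), or both agents (COMBO). RNA was taken 24 h after the last dosing, which was given in medium with 10% charcoal-stripped serum, a serum depleted of steroid hormones, in every arm. GSK and COMBO cells had already been kept in GSK126 for 6 days, so time in the agent differs between the GDC and GSK arms. All libraries come from 1 cell line, and the study's methods describe plates seeded in triplicate, so p-values measure the spread between these plates, which may be technical.

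A purine ring is built in steps on phosphoribosyl pyrophosphate (PRPP), an activated ribose, until inosine monophosphate (IMP) is reached, from which GMP and AMP are made. A pyrimidine ring is made first and joined to PRPP afterwards, giving UMP and then CTP. Folate carries one-carbon units from serine to purine synthesis and to the methylation of dUMP to dTMP. Ribonucleotide reductase converts ribonucleotides to the deoxynucleotides that DNA synthesis consumes, and salvage enzymes recover free bases and nucleosides. Proliferating cells draw heavily on all of these routes.

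Gene counts per library ranged from 8785218 to 44437751, and the share of reads in genes averaged 75.8% (SD 0.456) with DMSO, 74.1% (0.214) with GDC, 70.7% (0.494) with GSK and 67.6% (1.17) with COMBO, each over 3 libraries. All 9 prostate luminal markers were expressed, with summed levels of 3327 to 6027 CPM (counts scaled to library size), whereas CD3E had 0 counts in every arm and PTPRC, PECAM1 and DCN had 0 in DMSO and GDC. The collagen genes COL1A1 and COL3A1 and the macrophage-associated gene CD68 were called higher in GSK and COMBO. Summed levels of the 8 blood, vessel and stroma markers were 15.4 to 17.2 CPM in DMSO and 17.2 to 19.9 in GDC. They were 34.8 to 47.7 CPM in GSK and 36.9 to 57.7 in COMBO. The share of reads in genes moved with the arms as the results below do, and its part in them was not tested.

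Nucleotide genes were lower in the treated arms, little with GDC, more with GSK and most with COMBO. Changes are log2 fold changes from edgeR's quasi-likelihood test, and a gene is said to rise or fall where its Benjamini-Hochberg adjusted p over 14189 genes was under 0.05. In GDC, 23 of 40 genes fell (57.5%, against 20.0% of all genes tested) and 3 rose (7.50%, against 20.0%), with a median change of -0.15. In GSK, 34 of 40 fell (against 35.7%) and 3 rose (against 40.0%), with a median of -0.88. In COMBO, 35 fell (87.5%, against 39.2%) and 2 rose (5.00%, against 43.3%), with a median of -1.19. The medians of all genes tested in the same comparisons were 0.02, 0.06 and 0.05. RNA was measured per library, so fewer cells that use a gene and less RNA of it per cell cannot be told apart.

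The size of the fall separated the arms more than its direction. Calls at least 2-fold lower numbered 0 of 40 in GDC (against 0.148% of all genes tested), 15 in GSK (against 5.86%) and 25 in COMBO (against 11.2%). Mean levels ran from DMSO over GDC and GSK down to COMBO in 27 of 40 genes, and COMBO was the lowest arm in 32. How often all genes tested show either order was not counted, so these numbers describe the list only. Of the 35 genes that fell in COMBO, 34 had changed more in size in GSK than in GDC, and the exception was APRT. Calls were more frequent in GSK over all genes tested too. There 40.0% rose and 35.7% fell in GSK, against 20.0% and 20.0% in GDC. The higher share of calls in GSK is thus not particular to these genes. How many of all genes tested changed more in size in GSK than in GDC was not counted. Against GDC, 35 genes fell in COMBO (87.5%, against 38.0% of all genes) and 0 rose (against 37.9%). Also at an unadjusted p under 0.05 the number that rose was 0, as it was with DESeq2. At an adjusted p under 0.05 that number was 3 with library totals and 2 at a mean of at least 1 CPM. Against GSK, 29 fell in COMBO (72.5%, against 26.9%) and 0 rose (against 19.0%). At an unadjusted p under 0.05, edgeR gave 2 higher genes in that comparison, IMPDH2 and CMPK1. DESeq2 called 0, while library totals, no filter and a mean of at least 1 CPM each gave 2. There were 27 genes called lower in COMBO than in each of the other arms (against 20.3% of all genes tested), among them GART and CAD, whose calls against GSK were lost in 19 and 15 of 19 alternatives. The comparisons with DMSO share the same 3 control libraries.

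**Figure D1:**
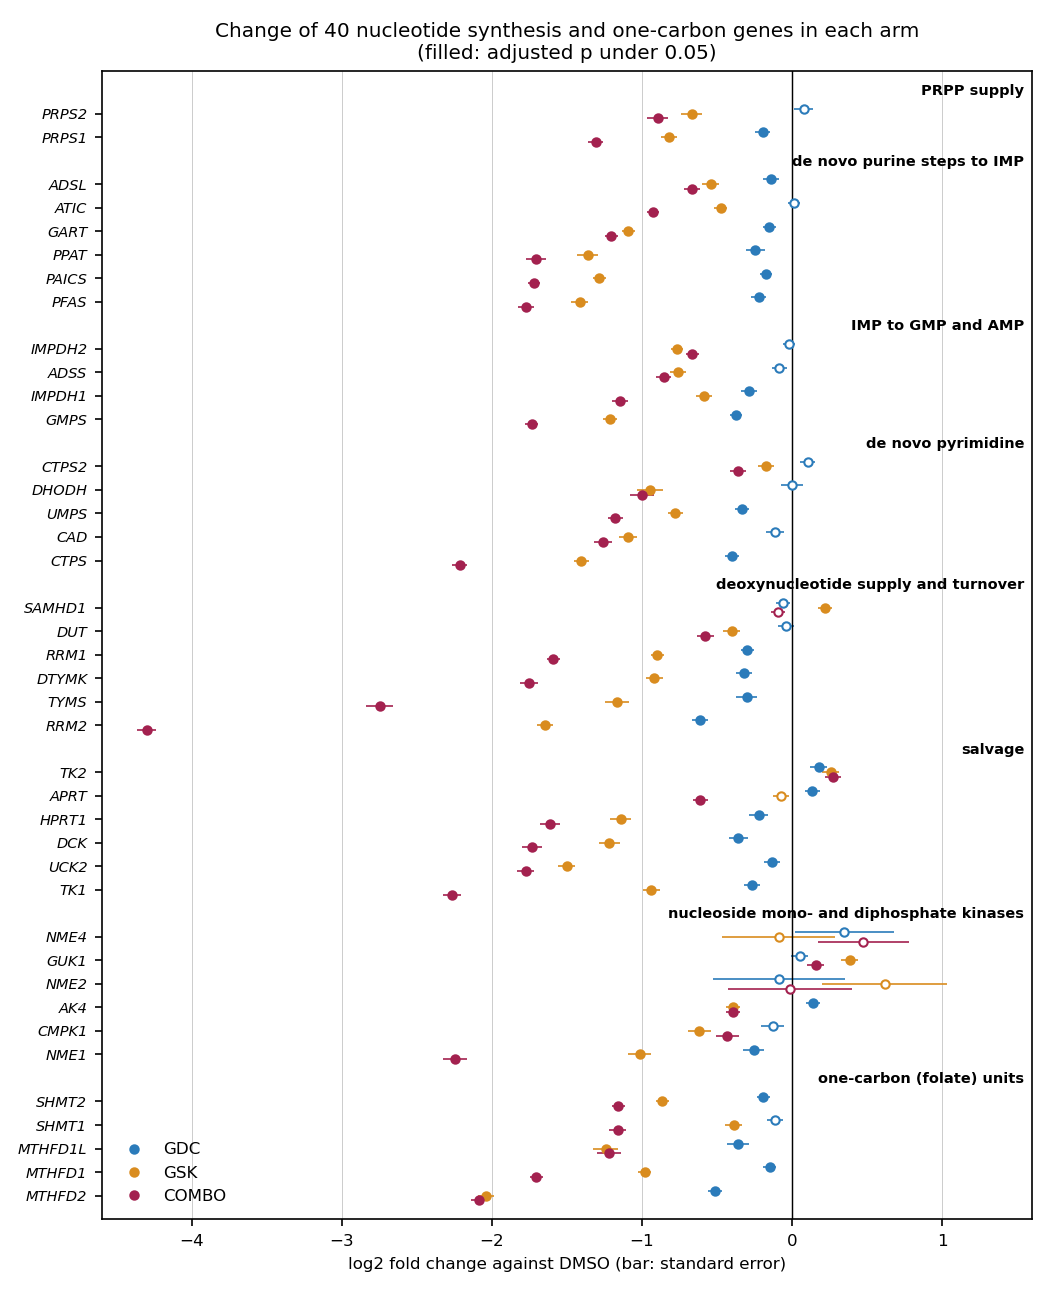
Log2 fold change against DMSO (x axis) of the 40 genes, ordered by step, in GDC, GSK and COMBO; bars are standard errors and filled points had an adjusted p under 0.05. The COMBO points lie left of 0 for 35 called genes, farthest for RRM2 at -4.30, while TK2 lies right of 0 in the 3 arms.

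PRPP synthetases, which make the activated ribose for purines, pyrimidines and salvage, were lower in GSK and COMBO. PRPS1 stood at 183, 208 and 199 CPM under DMSO, at 179, 171 and 168 under GDC, at 116, 112 and 109 under GSK and at 76.6, 82.7 and 79.2 under COMBO. The arms did not overlap, and each treated arm lay below the previous one. The COMBO change was -1.31 ± 0.05 (SE) and that of the second synthetase, PRPS2, -0.90 ± 0.07. PRPS2 did not fall in GDC, where its change was 0.08 ± 0.07 (edgeR adjusted p = 0.37).

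The 6 enzymes that carry PRPP to IMP all fell in GSK and in COMBO, with median changes of -1.19 and -1.46, and 5 of them fell in GDC, with a median of -0.16. The GDC call of ADSL was lost with library totals and without GDC B or GDC C (adjusted p up to 0.15). PFAS, which adds nitrogen from glutamine, changed most. Its levels were 112, 120.1 and 112 CPM under DMSO, 103, 96.6 and 96.1 under GDC, 45.0, 42.3 and 41.9 under GSK and 34.7, 31.8 and 34.6 under COMBO. The arms were separate, with GSK and COMBO far below the others, and COMBO was 3.42-fold lower than DMSO (log2 -1.77 ± 0.06, edgeR adjusted p = 1.19e-16). ADSL and ATIC, which act late in the route, changed least, by -0.67 ± 0.06 and -0.93 ± 0.04 in COMBO. ATIC was the enzyme of the route with no fall in GDC (0.01 ± 0.04), and its 3 COMBO libraries, at 188 to 205 CPM, lay below the 3 GSK libraries at 265 to 275 CPM. GART, which catalyses several steps of the route and uses folate, fell by 1.21 ± 0.04 in COMBO and by 1.09 ± 0.04 in GSK. Its further difference between COMBO and GSK, -0.12 ± 0.05, passed the threshold with TMM scaling over all 12 libraries and in none of 19 alternative settings (adjusted p 0.053 to 0.32).

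PPAT, whose enzyme commits PRPP to purine synthesis, and PAICS, whose enzyme acts later in the same route, lie head to head on chromosome 4. The starts used here are 645 bases apart, with transcription running outward. PPAT stood at 137, 117 and 125 CPM under DMSO, 104, 109 and 105 under GDC, 53.1, 48.3 and 45.6 under GSK and 35.1, 40.6 and 39.5 under COMBO. PAICS stood at 599, 608 and 596 CPM under DMSO, 537, 536 and 524 under GDC, 243, 251 and 244 under GSK and 180.0, 192 and 174 under COMBO. In both genes the arms were separate and in the same order. Their changes were close in every arm: -0.24 ± 0.06 and -0.17 ± 0.04 under GDC, -1.36 ± 0.07 and -1.28 ± 0.04 under GSK, and -1.71 ± 0.07 and -1.72 ± 0.04 under COMBO, PPAT first. The 250 bases before each start are shown because the genes lie head to head, and the windows shown do not overlap. They are from RefSeq's GRCh38.p14 assembly, 5′ to 3′ on the strand of each gene, with PPAT at chr4:56435616-56435865 on the minus strand and PAICS at chr4:56436010-56436259 on the plus strand. Capitals mark a match on either strand to CACGTG (an E-box, the motif of MYC and related factors), to TTTCCCGC, TTTGGCGC or TTTCGCGC (E2F-type) or to CCAAT.
PPAT: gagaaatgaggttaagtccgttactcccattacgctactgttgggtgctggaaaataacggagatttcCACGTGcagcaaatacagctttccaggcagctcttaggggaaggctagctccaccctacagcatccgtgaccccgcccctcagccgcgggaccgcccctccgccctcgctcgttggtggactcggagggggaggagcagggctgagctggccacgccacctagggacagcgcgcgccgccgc
PAICS: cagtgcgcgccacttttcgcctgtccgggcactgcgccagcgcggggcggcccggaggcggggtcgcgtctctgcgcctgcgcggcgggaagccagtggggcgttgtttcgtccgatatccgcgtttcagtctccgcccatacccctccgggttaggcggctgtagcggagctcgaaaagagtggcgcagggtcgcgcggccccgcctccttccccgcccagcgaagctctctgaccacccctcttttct
The PPAT window holds 1 E-box, 182 bases before the start, and the PAICS window has no match. This E-box lies between the starts used here, so the windows do not assign it to either gene. GENCODE places the 5′ end of the PAICS gene at 56435741, inside the PPAT window. By that end, the E-box lies within the PAICS gene. PAICS has 3 windows in the RefSeq table, of which 1 is shown. CACGTG occurs in 7.23% of the 34943 promoter windows of 300 bases in the RefSeq table. It occurs in 6 of the 36 windows taken for these genes, 1 per gene, whereas the table holds several windows for some genes.

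Beyond IMP the 4 enzymes of GMP and AMP synthesis fell in GSK and COMBO (medians -0.76 and -1.00). GMPS, which makes GMP, stood at 347, 327 and 333 CPM under DMSO, 258, 266 and 251 under GDC, 143, 144 and 146 under GSK and 98.02, 104 and 99.0 under COMBO. Its arms were separate, and the COMBO level was 3.33-fold below DMSO (log2 -1.74 ± 0.04, edgeR adjusted p = 6.28e-18). The 2 IMP dehydrogenases, which begin GMP synthesis, moved apart. IMPDH1 fell in GDC (-0.29 ± 0.05) and was lower in COMBO than in GSK (-0.56 ± 0.06), whereas IMPDH2 was at -0.02 ± 0.04 in GDC and at 0.10 ± 0.04 in COMBO against GSK, both short of the threshold. ADSS, on the way to AMP, fell by 0.86 ± 0.05 in COMBO and was at -0.09 ± 0.06 against GSK (adjusted p = 0.18).

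Pyrimidine synthesis fell at each of its steps in GSK and COMBO, with medians of -0.94 and -1.18 over 5 genes. CTPS, the synthetase that converts UTP to CTP, changed most. It stood at 203, 209 and 206 CPM under DMSO, 161, 156 and 152 under GDC, 80.8, 77.0 and 75.7 under GSK and 44.3, 42.5 and 46.6 under COMBO. Its arms were separate, with COMBO 4.64-fold below DMSO (log2 -2.22 ± 0.05, edgeR adjusted p = 1.11e-18). CAD, which carries out the first steps of the ring, fell by 1.26 ± 0.06 in COMBO and by 1.09 ± 0.06 in GSK, and was at -0.11 ± 0.06 in GDC (adjusted p = 0.13). The difference between COMBO and GSK for CAD, -0.17 ± 0.06, lost its call in 15 of 19 alternatives. DHODH, the mitochondrial step of the ring, changed by -1.00 ± 0.08 in COMBO and did not differ measurably between COMBO and GSK (-0.06 ± 0.09). UMPS, which finishes UMP, fell in all 3 treated arms, by 0.33 ± 0.05, 0.78 ± 0.05 and 1.18 ± 0.05. CTPS2, the second CTP synthetase, fell by 0.36 ± 0.05 in COMBO, and its fall in GSK (-0.17 ± 0.05) lost its call when libraries were scaled by their totals (adjusted p = 0.72).

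Deoxynucleotide supply held the largest change of all 40 genes. RRM2, the regulatory subunit of ribonucleotide reductase that cells make for S phase, stood at 318, 327 and 336 CPM under DMSO, 206, 228 and 207 under GDC, 111, 102 and 101 under GSK and 15.2, 17.7 and 16.7 under COMBO. The 3 COMBO libraries lay far below the 3 GSK libraries, and no arms overlapped. COMBO was 19.7-fold below DMSO (log2 -4.30 ± 0.07, edgeR adjusted p = 5.49e-21), and the single agents gave -0.61 ± 0.05 and -1.65 ± 0.06. RRM1, the catalytic subunit, fell less, by 1.59 ± 0.04 in COMBO.

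TYMS, thymidylate synthase, which makes dTMP with a one-carbon unit from folate, stood at 35.8, 38.6 and 34.2 CPM under DMSO, 28.7, 30.4 and 28.4 under GDC, 17.5, 14.3 and 16.7 under GSK and 5.28, 5.14 and 5.75 under COMBO. Its arms were separate, and the COMBO change was -2.75 ± 0.09 (edgeR adjusted p = 2.56e-16). Of the exon bases of TYMS, 39.9% overlap exons of ENOSF1 on the opposite strand. The use of strand in the counting is not given in the sources used here. Whether TYMS reads there were counted, and for which gene, is thus not known. DTYMK, the kinase that takes dTMP to dTDP, fell by 1.75 ± 0.06 in COMBO, and DUT, which makes dUMP and keeps uracil out of DNA, by 0.58 ± 0.06. SAMHD1, which breaks deoxynucleotides down, went another way. It rose in GSK (0.22 ± 0.05), from 75.2, 73.8 and 74.1 CPM in DMSO to 86.4, 88.0 and 84.7, and stood at 70.1, 70.2 and 68.5 in COMBO. The call in GSK was lost with no filter on low counts (adjusted p = 0.061). Its COMBO libraries lay below all DMSO libraries, but the change of -0.09 ± 0.05 missed the threshold. Over the alternatives it ran from -0.14 to 0.11. It was a called fall in several of them, among them DESeq2 and DESeq2 size factors. With libraries scaled by their totals it became a called rise of 0.11 (adjusted p = 0.026).

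Salvage split between the 2 thymidine kinases. TK1, the cytosolic enzyme that peaks with DNA synthesis, stood at 176, 192 and 186 CPM under DMSO, 153, 161 and 147 under GDC, 105, 95.2 and 90.5 under GSK and 37.9, 38.6 and 38.8 under COMBO. Its arms were separate, and it fell by 2.27 ± 0.06 in COMBO (edgeR adjusted p = 7.23e-18). TK2, the mitochondrial enzyme, stood at 34.5, 35.5 and 35.4 CPM under DMSO, 39.7, 38.9 and 41.0 under GDC, 44.1, 42.3 and 40.2 under GSK and 42.4, 42.8 and 42.3 under COMBO. All 9 treated libraries lay above the 3 DMSO libraries while the treated arms lay close to each other, and TK2 rose by 0.27 ± 0.05 in COMBO and 0.26 ± 0.06 in GSK. The rise in GDC, 0.18 ± 0.06, lost its call in 12 of 19 alternatives. DCK, the deoxycytidine kinase, fell by 1.73 ± 0.07 in COMBO, UCK2, the uridine-cytidine kinase, by 1.78 ± 0.06, and HPRT1, which salvages hypoxanthine and guanine, by 1.61 ± 0.07.

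APRT, which salvages adenine, differed from the other salvage genes in its pattern. It stood at 129.5, 139 and 134 CPM under DMSO, 149.8, 149 and 145 under GDC, 135, 130.0 and 119.7 under GSK and 92.0, 88.9 and 83.1 under COMBO. DMSO and GSK overlapped, and the COMBO libraries were the lowest. The GSK change was -0.07 ± 0.05 (adjusted p = 0.23) and the COMBO change -0.61 ± 0.05, while the rise in GDC, 0.14 ± 0.05, lost its call in 15 of 19 alternatives.

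The promoters of RRM2, TYMS and TK1 are shown because these 3 genes had the largest interaction terms, described further on. The 250 bases before each start are from the same assembly and carry capitals for the same motifs, with RRM2 at chr2:10122489-10122738 on the plus strand, TYMS at chr18:657403-657652 on the plus strand and TK1 at chr17:78187053-78187302 on the minus strand.
RRM2: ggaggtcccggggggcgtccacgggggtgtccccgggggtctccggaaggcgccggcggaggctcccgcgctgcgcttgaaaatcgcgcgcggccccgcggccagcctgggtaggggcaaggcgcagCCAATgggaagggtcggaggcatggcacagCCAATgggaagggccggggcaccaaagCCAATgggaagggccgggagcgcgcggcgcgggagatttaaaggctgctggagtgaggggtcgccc
TYMS: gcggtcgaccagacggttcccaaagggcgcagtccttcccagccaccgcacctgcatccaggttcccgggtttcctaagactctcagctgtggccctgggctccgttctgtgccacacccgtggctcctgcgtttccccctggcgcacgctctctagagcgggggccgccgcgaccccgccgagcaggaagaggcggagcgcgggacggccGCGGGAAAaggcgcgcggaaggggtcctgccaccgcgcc
TK1: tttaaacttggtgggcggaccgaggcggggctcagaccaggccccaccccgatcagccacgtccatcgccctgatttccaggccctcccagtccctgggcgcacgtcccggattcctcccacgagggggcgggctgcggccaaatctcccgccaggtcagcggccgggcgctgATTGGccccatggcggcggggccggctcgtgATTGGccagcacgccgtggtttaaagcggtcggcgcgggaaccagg
RRM2 holds 3 CCAAT letters on its own strand, 123, 93 and 66 bases before the start, and TK1 holds 2 on the opposite strand, 77 and 46 bases before it. TYMS holds 1 E2F-type match on the opposite strand, 39 bases before the start. CCAAT occurs in 34.6% of the RefSeq windows and in 15 of the 36 windows taken for these genes, and an E2F-type match in 2.72% and in 4 of 36. The matches are letters in these windows and do not show binding.

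**Figure D2:**
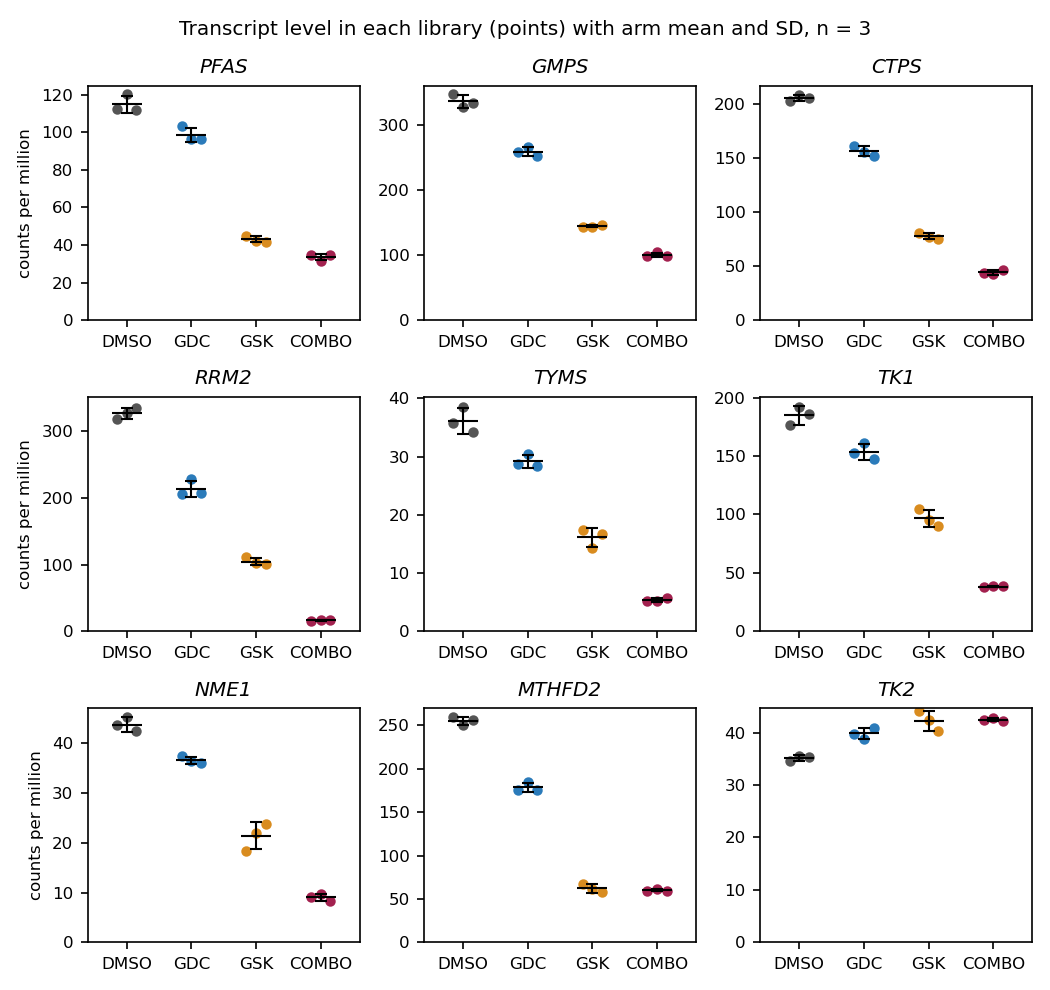
CPM in each library (points, y axis from 0) by arm for 9 genes, with the arm mean and SD, n = 3. RRM2 drops from 318 to 336 CPM in DMSO to 15.2 to 17.7 in COMBO, MTHFD2 reaches its COMBO level already in GSK, and TK2 is higher in every treated library than in DMSO.

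The kinases that raise mono- and diphosphates had no shared direction, with a median of -0.20 in COMBO over 6 genes. NME1, a nucleoside diphosphate kinase, stood at 43.7, 45.3 and 42.5 CPM under DMSO, 37.4, 36.5 and 36.0 under GDC, 18.4, 22.0 and 23.9 under GSK and 9.22, 9.76 and 8.37 under COMBO. Its arms were separate, and it fell by 2.25 ± 0.08 in COMBO (edgeR adjusted p = 1.24e-15). GUK1, the guanylate kinase, stood at 103, 119.5 and 115 CPM under DMSO, 118, 119.6 and 114 under GDC, 150.1, 155 and 138 under GSK and 130.2, 123 and 126 under COMBO. It was highest in GSK, where it rose by 0.38 ± 0.06, and DMSO overlapped with GDC. Its rise in COMBO, 0.16 ± 0.06, lost its call in 6 of 19 alternatives, among them DESeq2. AK4, a mitochondrial adenylate kinase, fell by 0.39 ± 0.05 in GSK and by 0.39 ± 0.04 in COMBO, and its rise in GDC (0.14 ± 0.04) lost its call in 13 of 19 alternatives. CMPK1, which phosphorylates CMP and UMP, fell by 0.62 ± 0.08 in GSK and by 0.43 ± 0.08 in COMBO. NME2 and NME4 had 22 to 52 counts per arm, and neither was called in any comparison. NME1 and NME2 share exon bases with the readthrough gene NME1-NME2, which has 0 counts over the 12 libraries, and NME4 shares 15.6% of its exon bases with DECR2, so levels of these genes are uncertain.

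One-carbon enzymes fell in GSK and COMBO, all 5 of them, with medians of -0.98 and -1.22. MTHFD2, the mitochondrial methylenetetrahydrofolate dehydrogenase, stood at 259, 251 and 256 CPM under DMSO, 176, 185 and 176 under GDC, 67.6, 61.1 and 57.7 under GSK and 58.9, 61.5 and 59.5 under COMBO. GSK and COMBO overlapped and lay far below the other arms. Exons of SLC4A5 on the opposite strand overlap 11.6% of the MTHFD2 exon bases, so whether its reads there were counted, and for which gene, is not known. It had the largest fall of the 40 genes in GSK, -2.04 ± 0.05, and in COMBO it was at -2.09 ± 0.05, a difference of -0.05 ± 0.06 (adjusted p = 0.54). MTHFD1L, which releases formate in the mitochondrion, showed the same pattern, with -1.24 ± 0.08 in GSK and -1.22 ± 0.08 in COMBO.

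The cytosolic one-carbon enzymes fell further when both inhibitors were given. SHMT1, the cytosolic serine hydroxymethyltransferase, stood at 99.4, 109.7 and 103 CPM under DMSO, 93.2, 95.1 and 100.3 under GDC, 82.2, 80.0 and 76.8 under GSK and 43.0, 47.9 and 48.8 under COMBO. DMSO and GDC overlapped, and COMBO lay far below GSK (-0.77 ± 0.06). MTHFD1, the cytosolic enzyme with several folate activities, was lower in COMBO than in GSK by 0.72 ± 0.05 on the log2 scale. SHMT2, the mitochondrial serine hydroxymethyltransferase, was at -0.29 ± 0.04 in the same comparison.

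The interaction term (COMBO minus GDC minus GSK plus DMSO on the log2 scale) asked whether COMBO changed a gene by other than the GDC and GSK changes added together, called the sum here. Of the 40 genes, 18 were below the sum (45.0%, against 16.5% of all genes tested) and 3 above it (7.50%, against 4.86%), with a median of -0.21 beside -0.06 for all genes. RRM2 departed most, by -2.04 ± 0.09 (edgeR adjusted p = 1.05e-11), so that a fall of 4.79-fold from the sum stood beside 19.7-fold in COMBO. TYMS followed with -1.28 ± 0.13 and TK1 with -1.06 ± 0.08. NME1 (-0.98 ± 0.12), APRT (-0.68 ± 0.07), SHMT1 (-0.66 ± 0.08), MTHFD1 (-0.57 ± 0.06), DTYMK (-0.51 ± 0.08) and ATIC (-0.47 ± 0.06) were also below it. By step, 5 of 6 deoxynucleotide genes were below the sum, both PRPP synthetases, 2 of 6 enzymes of the route to IMP, 1 of 4 beyond IMP, 2 of 5 pyrimidine genes, 2 of 6 salvage genes, 2 of 6 kinases and 2 of 5 one-carbon genes. MTHFD2 (0.47 ± 0.07), MTHFD1L (0.38 ± 0.12) and CMPK1 (0.31 ± 0.11) were above it, the first 2 being the genes described above with overlapping or close levels in GSK and COMBO. The number below the sum dropped from 18 to 11 without DMSO C, GDC A, GDC B, GSK B or COMBO A and with no filter on low counts, and PRPS1, PRPS2, PAICS, IMPDH1, CTPS2, SAMHD1, GUK1 and CMPK1 lost their call under 6 to 15 of 18 alternatives.

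**Figure D3:**
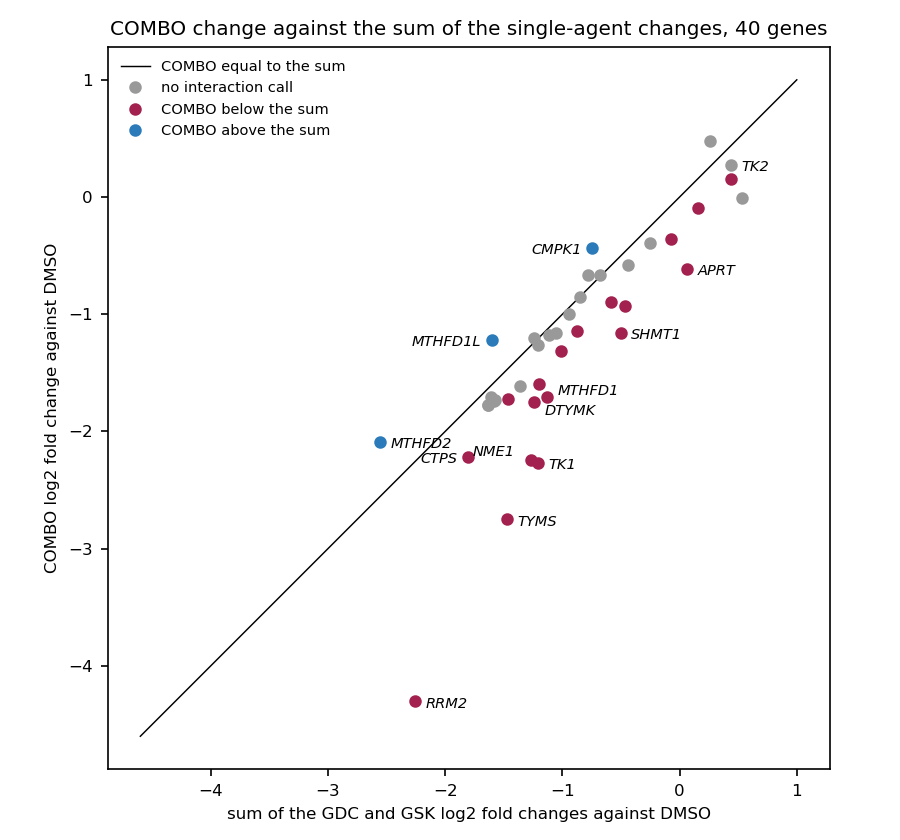
COMBO log2 fold change (y axis) against the sum of the GDC and GSK log2 fold changes (x axis), all against DMSO, for the 40 genes; the line marks equality and colours mark the interaction call. RRM2, TYMS, TK1 and NME1 lie below the line, and MTHFD2, MTHFD1L and CMPK1 above it.

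Genes of DNA replication and proliferation moved with these results. All 12 such markers, among them MCM2 to MCM7, PCNA, CDC6 and E2F1, fell in GSK and in COMBO, 10 fell in GDC and 11 were below the sum in COMBO. Their summed level was 3399 to 3445 CPM under DMSO, 2755 to 2846 under GDC, 1273 to 1468 under GSK and 647 to 658 under COMBO, with no overlap between arms. Their COMBO changes ran from -1.53 to -4.24, with a median of -2.65, so RRM2 at -4.30 lay beyond that range and TYMS at -2.75 near its middle. No marker of this list was at 0, and the part of the replicating share of cells in the nucleotide genes was not tested.

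Related genes were also compared within each library as the log2 ratio of their counts, which needs no scaling between libraries. These ratios are not per length, so only their differences between arms are read. The arms differed in all 7 pairs by an exact permutation test of the F statistic over 369600 assignments of the 12 libraries to arms. In this test the Benjamini-Hochberg adjusted p over the 7 pairs was 0.00011 to 0.004. The smallest unadjusted p it can give is 6.5e-05. It takes all arms together and has no direction, so single differences between arms were not tested. RRM2 against RRM1 went from -0.16 ± 0.04 under DMSO to -0.48 ± 0.06 under GDC, -0.91 ± 0.10 under GSK and -2.88 ± 0.10 under COMBO (SD, n = 3), a difference of -2.71 between COMBO and DMSO. TK1 against TK2 differed by -2.54 and CTPS against CTPS2 by -1.86 between the same arms.

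MTHFD2 against MTHFD1L was 2.29 ± 0.18 under DMSO, 2.12 ± 0.09 under GDC, 1.47 ± 0.16 under GSK and 1.41 ± 0.03 under COMBO, with the GSK and COMBO libraries overlapping. IMPDH1 against IMPDH2 was highest in GSK (-1.60 ± 0.02) and lowest in COMBO (-2.26 ± 0.03), on either side of DMSO (-1.78 ± 0.04). SHMT1 against SHMT2 was -1.93 ± 0.03 in DMSO, -1.45 ± 0.02 in GSK and -1.94 ± 0.09 in COMBO, so the GSK libraries stood apart and COMBO overlapped DMSO. PRPS1 against PRPS2 differed by -0.39 between COMBO and DMSO.

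**Figure D4:**
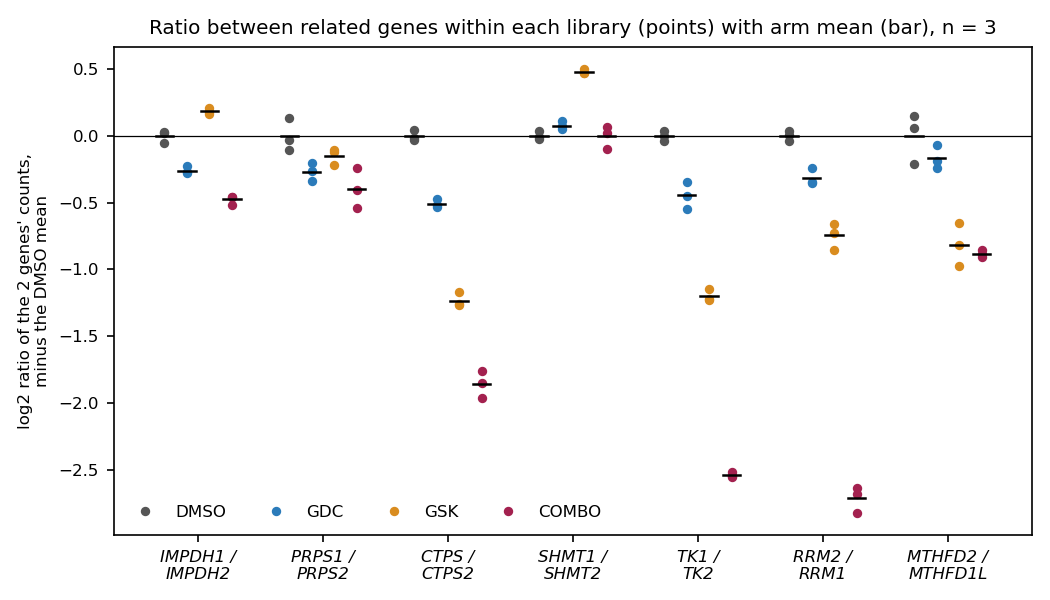
Log2 ratio of the counts of 2 related genes in each library (points), minus the DMSO mean of that pair, by arm; bars are arm means, n = 3. The COMBO means lie at -2.71 for RRM2 against RRM1, -2.54 for TK1 against TK2 and -1.86 for CTPS against CTPS2, and SHMT1 against SHMT2 is raised in GSK.

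Other genes of the same pathways changed less uniformly. Of 63 further genes tested, 14 fell (22.2%) and 11 rose (17.5%) in GDC, both near the 20.0% of all genes. In GSK 34 fell (54.0%, against 35.7%) and 16 rose (25.4%, against 40.0%), and in COMBO 36 fell (57.1%, against 39.2%) and 16 rose (25.4%, against 43.3%). The medians were 0.02, -0.18 and -0.38. Falls in COMBO included those of SLC29A1, an equilibrative nucleoside transporter (-2.48 ± 0.07), and PNP, purine nucleoside phosphorylase (-2.25 ± 0.07). Among the genes that rose, TYMP, which cleaves thymidine, changed by 2.11 ± 0.09 and ADSSL1, the muscle-type adenylosuccinate synthase, by 1.46 ± 0.13. TYMP stood at 8.63, 10.6 and 9.09 CPM under DMSO, 12.8, 13.4 and 13.8 under GDC, 25.1, 31.6 and 25.7 under GSK and 41.5, 40.3 and 41.3 under COMBO, and no arms overlapped.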

How the data were processed

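RNA-seq was analysed in C4.2B cells (12 libraries, 4 arms of 3). The submitters' processing notes name STAR, HTSeq and the build hg38. The authors deposited raw counts, 1 whole number of reads for each gene symbol and library. Versions, annotation and use of strand are not given in the sources used here. A normalized table that the authors made with DESeq2 was not used, and 0 columns of samples went unmapped. The 5 summary lines of reads outside genes entered neither library sizes nor tests. They held the reads not in genes, 24.2% of the total in DMSO on average and 32.4% in COMBO.

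Members and lists were chosen with earlier results of these data known. All genes were fitted together in edgeR 4.0.16 under R 4.3.3 (quasi-likelihood test, TMM, filterByExpr, 14189 genes, 1 coefficient per arm, no covariate), and p-values were two-sided and adjusted by Benjamini-Hochberg over all of them. All 40 members passed the filter. The common biological coefficient of variation was 0.0499. Replicates differed beyond sampling noise (chi-square per degree of freedom 2.54 to 5.18). CPM values use TMM library sizes. Ratios within libraries had 0.5 added to each count. The steps were tested on simulated data.

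Values of every library are given for the gene of each step with the largest COMBO change, genes opposite to their step, the 3 largest interactions and gene pairs, with further genes chosen after their values were seen. Gene positions were read from GENCODE 44 on hg38, and promoter windows from RefSeq GRCh38.p14, matched by symbol for 36 of 40 members, taking the start nearest to that of the gene's MANE Select transcript. Alternatives were DESeq2 1.42.0, other scalings and filters, fits of the compared arms alone, a replicate block and leaving out each library. Some genes of the wider pathway list are not reported here by name.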

Additional observations from a re-analysis of the deposited data

Results flagged for a closer look

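The effect of GDC differed with and without GSK for 21 of the 40 genes, by the edgeR interaction test at an adjusted p under 0.05. The difference was negative in 18 (45.0%, against 16.5% of all genes tested) and positive in 3 (7.50%, against 4.86%). The difference of the GDC effects, in log2 units, was largest in RRM2 (-2.04), TYMS (-1.28) and TK1 (-1.06). It was -0.98 in NME1, -0.68 in APRT, -0.66 in SHMT1, -0.57 in MTHFD1, -0.51 in DTYMK, -0.47 in ATIC, -0.41 in CTPS and -0.39 in RRM1. These 11 genes kept the call under each of the 18 alternatives that could be fitted to the interaction.

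Smaller differences were found in PRPS2 (-0.31), PRPS1 (-0.30), CTPS2 (-0.29), GUK1 (-0.28), IMPDH1 (-0.27), PAICS (-0.26) and SAMHD1 (-0.25), and these lost the call under 6 to 15 alternatives. MTHFD2 (0.47), MTHFD1L (0.38) and CMPK1 (0.31) differed in the opposite direction. CMPK1 lost the call under 6 alternatives, with adjusted p up to 0.11. No group had 4 or more libraries, so single libraries were not screened for extreme values.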

How the results depend on the processing

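Of 240 gene results (40 genes in 6 comparisons), 185 were called, 162 of them under every alternative, and 23 lost the call under some. Scaling by library totals raised the all-gene median by 0.15 (GSK), 0.21 (COMBO) and 0.17 (COMBO against GDC). SAMHD1 then changed sign in COMBO, to 0.11 against DMSO and 0.14 against GDC. Genes higher in GDC (3) became 0 with DESeq2, DESeq2 size factors and no filter, 1 at a mean of at least 1 CPM, and 0 to 3 when single libraries were left out (0 without any of DMSO A, B and C, GDC A, B and C, GSK A and B, or COMBO A). Genes higher in COMBO against DMSO (2) became 1 with DESeq2, no filter and the compared arms alone, 4 with library totals, and 1 to 2 with single libraries left out (1 without DMSO A, COMBO A or COMBO C). Genes higher in COMBO against GDC (0) became 3 with library totals, 2 at a mean of at least 1 CPM, 1 with the compared arms alone, and 0 to 2 with single libraries left out (2 without DMSO A, B or C, and 1 without GDC B, GDC C, GSK A or GSK B). Genes higher in COMBO against GSK (0) became 1 with DESeq2 size factors, 2 with no filter, library totals, the compared arms alone and a mean of at least 1 CPM, and 0 to 2 with single libraries left out (2 without any of the DMSO or GDC libraries or COMBO A, 1 without GSK B or COMBO C). Genes below the sum in COMBO (18) became 11 with no filter and 11 to 18 with single libraries left out. The counts of genes that fell stayed within 1.5 times in the other comparisons. For the other pathway genes, an alternative chosen after seeing the data, the 11 higher in GDC became 5 to 11 with single libraries left out (5 without DMSO B and 6 without DMSO C, GDC B or GDC C). The SHMT1 to SHMT2 difference between COMBO and DMSO, near 0, turned to 8.80e-05 with 5 added to each count and ran from -0.037 to 0.045 with single libraries left out (0.014 without DMSO B and 0.045 without COMBO A).

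Over all pairs of arms, same-lettered libraries deviated together little (median correlation -0.02, from -0.08 to 0.19, with 2 of 18 over 0.1). Between GDC and COMBO the same-letter correlations were 0.12 (A), 0.19 (B) and 0.07 (C). Those of different letters between these arms ran from -0.15 to 0.05. Whether letters pair plates of these arms is not known. With a replicate block, 28 genes instead of 29 were lower in COMBO against GSK, and 0 calls were gained. Low counts limit NME2 and NME4. The cause of these shifts was not tested.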
